A study of Mus musculus with 6 samples.

Results

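The secretory pathway and unfolded protein response genes comprised 42 genes chosen by name: stress sensors, transcription factors, chaperones, disulfide isomerases, degradation factors, translocon and signal peptidase subunits, and COPII coat genes. All 42 symbols were found in the count table, in 43 of its 55487 rows, because Ddit3 had a second row with 0 counts in every library. Enough counts for a test were found for 41 members, among 17165 genes tested in all. Ern2, the epithelial relative of the sensor Ern1, was not tested: it had 3 counts in IL-21isoTg 1 and 0 in the other 5 libraries, where a count of 0 allows a level of up to 0.112 to 0.280 CPM (counts scaled to a common library total; counting error only).

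Proteins destined for secretion enter the endoplasmic reticulum (ER) through the Sec61 translocon, lose their signal peptide, are folded by chaperones and disulfide isomerases, and leave in COPII-coated vesicles. When unfolded protein accumulates, the sensors IRE1 (Ern1), PERK (Eif2ak3) and ATF6 start the unfolded protein response, in which IRE1 splices Xbp1 mRNA and PERK favours translation of Atf4. Alveolar cells of the lactating mammary gland expand this machinery to secrete milk proteins. Much of the response is set by splicing, cleavage and translation, which counts of reads per gene do not show; spliced and unspliced Xbp1 were counted together.

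The libraries were made from MECs of virgin female BALB/c mice at 10 weeks of age, 3 from wild-type mice and 3 from IL-21isoTg mice. The transgene encodes a membrane-bound isoform of IL-21, and its expression is directed to T cells, so the epithelium itself is not the cell type meant to carry it. MECs were obtained by removing cells positive for CD45, CD31 and CD140a with magnetic particles, not by a positive epithelial sort. Estrous stages were randomized. The labels number the libraries 1 to 3 in each genotype and do not say whether animals were pooled, so the p-values measure the spread between these libraries.

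Library totals ranged from 15902886 to 25719244 counts. Il21 had 0, 0 and 37 counts in wild-type 1, 2 and 3, and 795, 216 and 131 counts in IL-21isoTg 1, 2 and 3. Wild-type 3 stood apart from the other wild-type libraries also in some milk protein genes. It had 11565 counts of Csn2 against 321 and 209 in wild-type 1 and 2, and 611 counts of Wap against 1 and 1. Csn3 and Glycam1 did not set it apart. In wild-type 1, 2 and 3 Csn3 measured 343.7, 428.3 and 396.2 CPM, and Glycam1 91.2, 34.4 and 67.5 CPM. The labels do not say why wild-type 3 held Il21 counts and more counts of some milk protein genes. The counts of members in the genotype comparison are given with and without wild-type 3. The luminal epithelial markers (8 of 8 tested) summed to 5787 to 6726 CPM in wild-type and 4939 to 8248 CPM in IL-21isoTg libraries, and the 6 basal myoepithelial markers to 1329 to 1767 CPM and 1456 to 2642 CPM. All 8 milk protein genes were higher in every IL-21isoTg library than in any wild-type library, with sums of 523 to 1733 CPM in wild-type and 8818 to 20366 CPM in IL-21isoTg. Other cells were also represented. The 6 fibroblast markers summed to 1929 to 3416 CPM in wild-type and 4275 to 4936 CPM in IL-21isoTg. Of them, Col1a1, Col1a2, Col3a1 and Lum, 4 in all, were higher in IL-21isoTg without overlap between genotypes. Pdgfra overlapped, as did Dcn, which had a log2 fold change of -0.27. Among all genes tested, 5.54% lay higher in IL-21isoTg without overlap. The 4 endothelial markers summed to 52.1 to 132.9 CPM and 83.7 to 231.9 CPM. The T cell list reached at most 8.86 CPM in any library and the macrophage list 27.0 CPM, and of the 8 plasma cell genes, which summed to 140.6 to 347.6 CPM in wild-type and 117 to 185.9 CPM in IL-21isoTg, Mzb1 and Tnfrsf17 had at most 6 and 1 counts. Most of the plasma cell sum was Sdc1, which epithelial cells also express, at 91.0 to 309.5 CPM, while Jchain had 1.44 to 5.86 CPM and Igkc 5.48 to 20.2 CPM. Secretory genes of the salivary gland, 15 in the list and 13 tested, took 22.5, 6.55 and 15.4% of all counts in wild-type 1, 2 and 3 and 22.0, 5.01 and 39.5% in IL-21isoTg 1, 2 and 3; Smgc and Muc19 of this list had at most 4 counts. Dcpp1, Dcpp2 and Dcpp3 of this list were highest in wild-type 2, where the share was 6.55%, so the genes of the list did not vary together. The labels do not give the source of the salivary counts. The salivary share did not differ between genotypes beyond the spread (exact permutation test, two-sided p = 0.7; the smallest p that 3 against 3 libraries allow is 0.1). In bulk RNA, a change in the number of cells of a type and a change in RNA per cell cannot be told apart.

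The first comparison asked whether expression of the module differed between IL-21isoTg and wild-type MECs. Most members lay slightly higher in IL-21isoTg libraries, and Xbp1 had the smallest p among them, but no member passed the adjusted threshold. Of the 41 members tested, 39 had a log2 fold change above 0, against 47.9% of all genes tested; the exceptions were Canx at -0.04 and Pdia3 at -0.05. The median log2 fold change was 0.20 for the members and -0.02 for all genes. In edgeR's quasi-likelihood test, adjusted over all genes by the method of Benjamini and Hochberg, no member and 0% of all genes had an adjusted p under 0.05, and adjusted p of members ranged from 0.645 to 0.994. Unadjusted p was under 0.05 for 4 members, Xbp1, Sec24d, Creb3l1 and Sec61a1, all of them higher in IL-21isoTg, against 3.19% of all genes in that direction and 5.82% in either direction. The 2 genotypes did not overlap for 5 members, Xbp1, Sec24d, Sec61a1, Dnajb9 and Dnajb11, all higher in IL-21isoTg, while 5.54% of all genes lay higher and 6.54% lower without overlap. The DESeq2 Wald test, an alternative, called 1 member, Xbp1, and 72 genes higher and 8 lower of all genes, or 0.467% of those with an adjusted p. Without wild-type 3, 34 members were above 0, beside 49.1% of all genes, with a median of 0.22 against -0.0083 for all genes. In that fit 1 member had an unadjusted p under 0.05 and was higher in IL-21isoTg, as were 2.03% of all genes. No member was called (smallest adjusted p 0.994 with edgeR) and 6 of all genes were called higher. Leaving out the other libraries in turn gave 2 to 7 members with an unadjusted p under 0.05 and higher in IL-21isoTg. The share of all genes in these fits was 1.88 to 5.12%. Without IL-21isoTg 2, 32 members were above 0, and without IL-21isoTg 3, 37, beside 46.6% and 47.6% of all genes. The 8 milk protein genes and 4 of the 6 fibroblast markers were higher in the same 3 libraries, as given above. Their part in these differences was not tested.

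The signs of these small differences depended on the scaling of the libraries. With total counts alone as the library size, 18 of 41 members were above 0, the member median was -0.06 and the median of all genes was -0.27. With total counts outside the salivary gland list, 26 members were above 0, with medians of 0.06 for members and -0.16 for all genes. The member median exceeded that of all genes by 0.22, 0.21 and 0.22 log2 units under TMM, total counts and totals outside the salivary list. In these fits 39, 41 and 39 of the 41 members lay above the median of all genes. Another scaling shifts the log2 fold changes of all genes by nearly the same amount. These differences could therefore hardly change, and their likeness is no separate support.

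**Figure D1:**
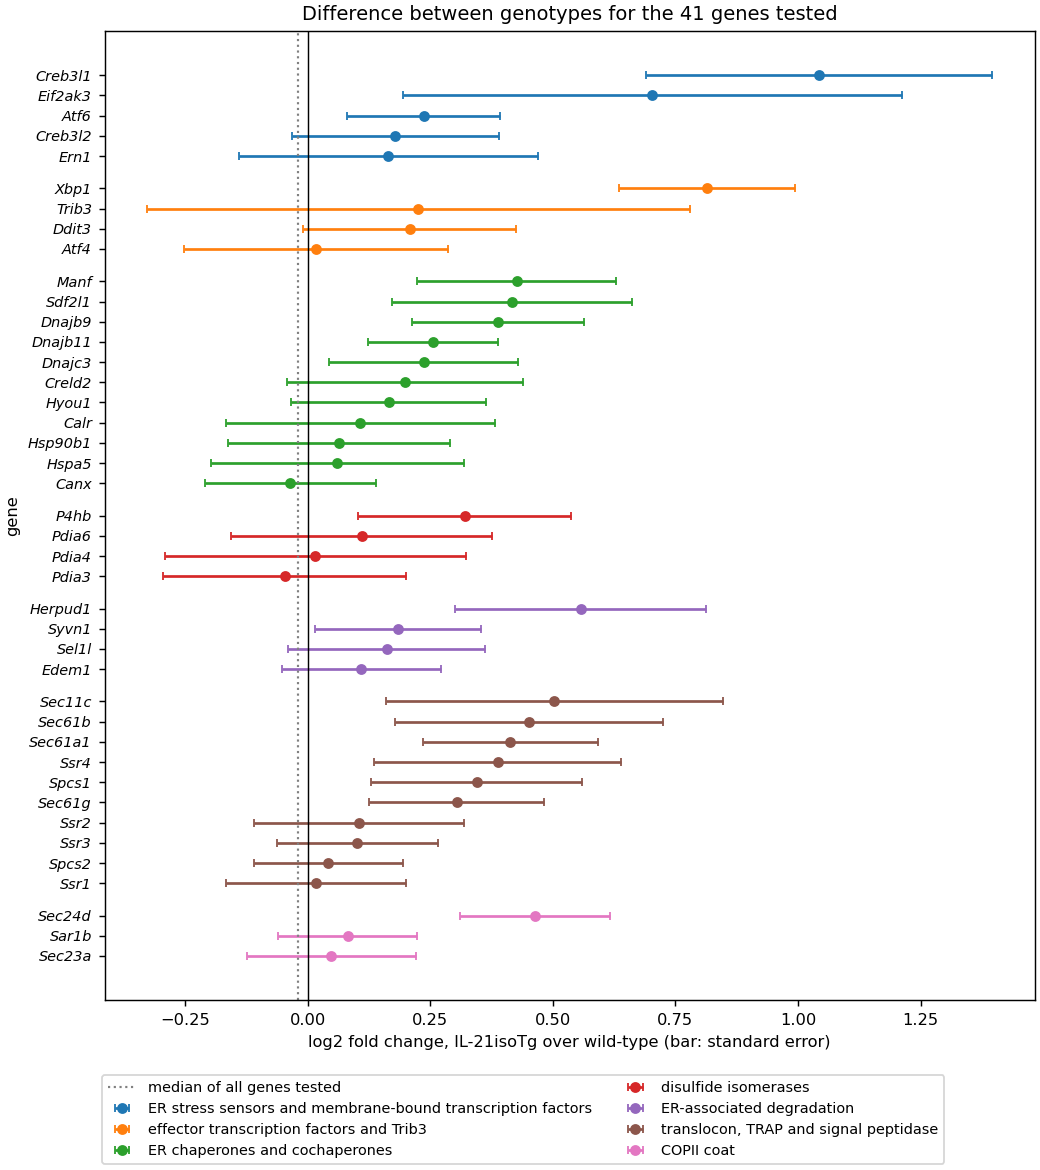
Log2 fold change of IL-21isoTg over wild-type (horizontal axis, TMM-normalized counts) for each of the 41 members tested, grouped by role in colour, with bars for the standard error (3 libraries per genotype); the dotted line is the median of all genes tested. Points lie to the right of 0 for 39 members, with Creb3l1 at 1.04 and Xbp1 at 0.81 farthest out, and many standard errors are wider than the difference.

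The 5 sensors and membrane-bound transcription factors tested had levels of 7.59 to 22.8 CPM per kilobase of exon, against 18.3 to 218 CPM per kilobase for the chaperones. Ern1, which encodes IRE1, measured 67.1, 153.1 and 124.6 CPM in wild-type 1, 2 and 3 and 101.2, 131.4 and 154.2 CPM in IL-21isoTg 1, 2 and 3. Eif2ak3, which encodes PERK, measured 80.1, 36.4 and 49.2 CPM in wild-type and 54.5, 47.4 and 168.8 CPM in IL-21isoTg. Atf6 measured 64.8, 67.8 and 60.4 CPM in wild-type and 65.6, 75.8 and 86.2 CPM in IL-21isoTg. For all 3 sensors the genotypes overlapped, and their log2 fold changes of 0.17, 0.70 and 0.24 had standard errors of 0.31, 0.51 and 0.16. Without IL-21isoTg 3, the log2 fold change of Eif2ak3 was -0.11. Eif2ak3 shares 485 exon bases with the antisense gene Gm43292, which had 96 to 298 counts per library against 758 to 1810 for Eif2ak3.

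Creb3l1 encodes OASIS, a membrane-bound factor that is cleaved in the Golgi and is known from collagen-secreting cells. It measured 49.3, 30.8 and 36.3 CPM in wild-type and 84.2, 41.95 and 114.1 CPM in IL-21isoTg. The genotypes overlapped because IL-21isoTg 2 lay below wild-type 1. Creb3l1 had the largest log2 fold change of the members, 1.04 ± 0.35 (SE, n = 3 and 3), with an unadjusted p of 0.018 and an adjusted p of 0.809 with edgeR. Its relative Creb3l2 had a log2 fold change of 0.18 ± 0.21.

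Among the effectors, Xbp1, the transcription factor made after IRE1 splicing and needed for the expansion of the secretory apparatus, had the smallest p of the members. It measured 219.6, 216.3 and 259.2 CPM in wild-type 1, 2 and 3 and 418.3, 352.8 and 451.4 CPM in IL-21isoTg 1, 2 and 3. All IL-21isoTg libraries lay above all wild-type libraries. The gap between the groups was wider than the range within wild-type but not wider than the range within IL-21isoTg. The mean was 232 ± 23.8 CPM in wild-type and 407 ± 50.2 CPM in IL-21isoTg (SD, n = 3 each), a 1.76-fold difference (log2 0.81 ± 0.18 SE). The unadjusted p was 0.0019 and the adjusted p 0.645 with edgeR's quasi-likelihood test; the DESeq2 Wald test gave an adjusted p of 0.011, in a fit that called 72 of all genes higher. Leaving out each library in turn kept the log2 fold change between 0.74 and 0.91, with 0.90 without wild-type 3, and scaling to total counts alone gave 0.52.

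Atf4, the effector of the PERK branch and of amino acid shortage, measured 408.6, 203.8 and 239.0 CPM in wild-type and 267.2, 281.8 and 312.9 CPM in IL-21isoTg. Ddit3, which encodes the pro-apoptotic factor CHOP, measured 20.4, 14.7 and 21.4 CPM in wild-type and 21.9, 18.3 and 25.2 CPM in IL-21isoTg. Trib3, a pseudokinase gene downstream of ATF4, ranged from 4.004 to 18.5 CPM. Wild-type 1 was the highest library for Atf4 and Trib3 and the genotypes overlapped for all 3 genes, with log2 fold changes of 0.02 ± 0.27 for Atf4, 0.21 ± 0.22 for Ddit3 and 0.23 ± 0.55 for Trib3. Ddit3 shares 68 bases of exon with Mars on the opposite strand, which had 1347 to 2555 counts per library against 270 to 527 for Ddit3, and whether reads were assigned by strand is not given in the sources used here.

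**Figure D2:**
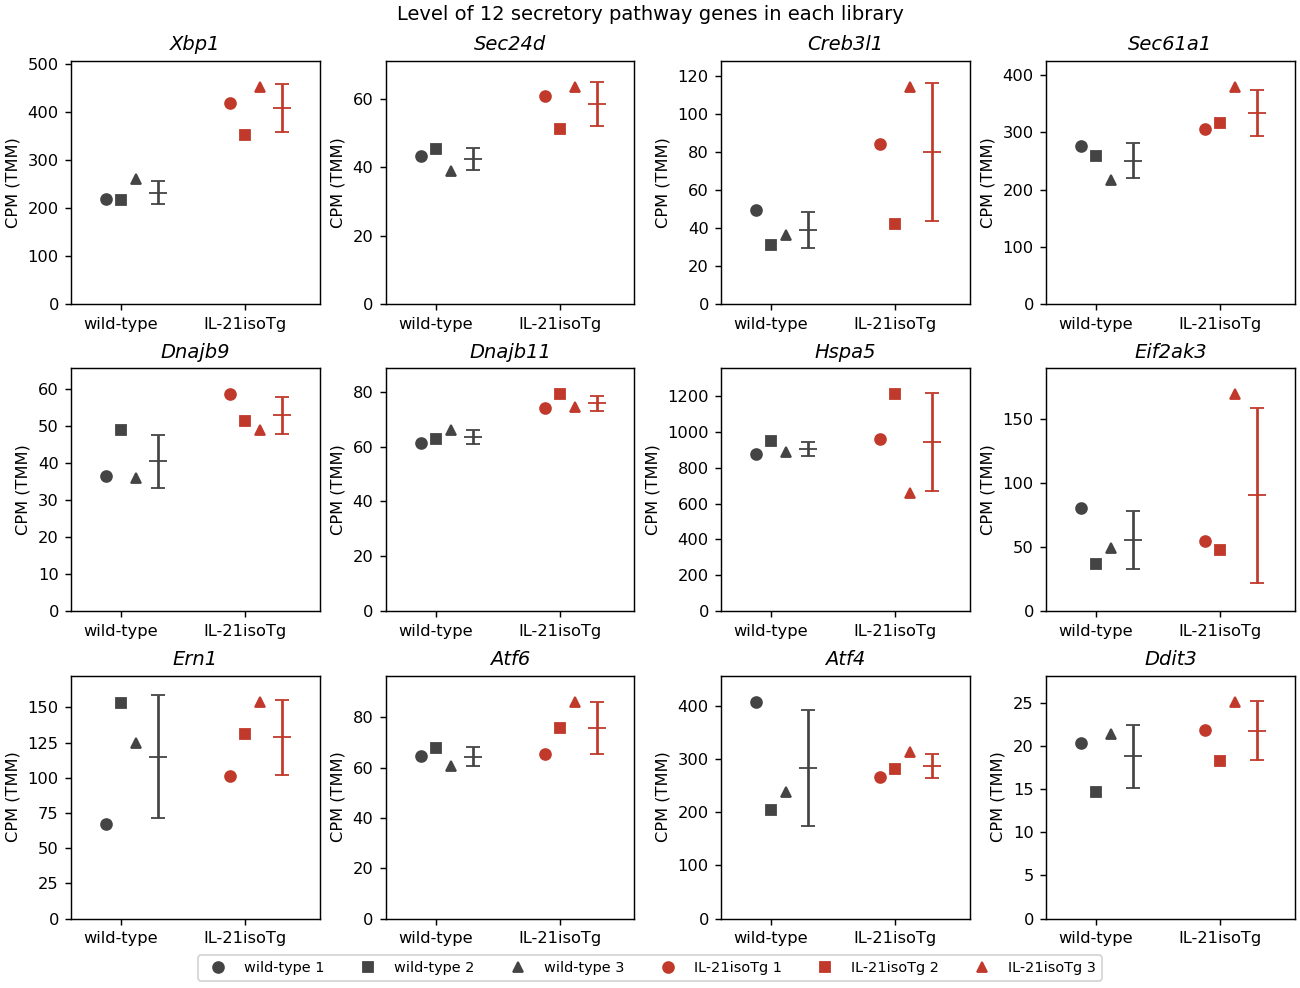
Level in TMM-normalized CPM (vertical axes, each from 0) of 12 members in each wild-type (grey) and IL-21isoTg (red) library, with the mean and SD of the 3 libraries beside the points. Xbp1, Sec24d, Sec61a1, Dnajb9 and Dnajb11 show IL-21isoTg points above all wild-type points, and Hspa5 and Eif2ak3 show IL-21isoTg 2 and IL-21isoTg 3 far apart.

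Of the 11 ER chaperones, 9 overlapped between genotypes, while 12.1% of all genes did not overlap in either direction. The 5 members with the highest level per kilobase of exon were P4hb at 246.6, Hspa5 at 218, Calr at 212.5, Pdia3 at 127.7 and Atf4 at 121.1 CPM per kilobase. Hspa5, which encodes BiP, the Hsp70 of the ER, measured 875.5, 946.8 and 888.1 CPM in wild-type and 961.0, 1207 and 658.0 CPM in IL-21isoTg. Wild-type libraries were close together, whereas IL-21isoTg 2 was the highest and IL-21isoTg 3 the lowest of all libraries. The log2 fold change was 0.06 ± 0.26, and it turned negative when IL-21isoTg 2 was left out (-0.16). Calr, the lectin chaperone calreticulin, was likewise highest in IL-21isoTg 2 and lowest in IL-21isoTg 3, with 616.6, 584.7 and 566.7 CPM in wild-type and 628.0, 862.4 and 414.3 CPM in IL-21isoTg, and a log2 fold change of 0.11 ± 0.27.

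The J-protein cochaperones Dnajb9 and Dnajb11 were the chaperone genes whose genotypes did not overlap. Dnajb9 (ERdj4) measured 36.7, 48.9 and 36.0 CPM in wild-type and 58.6, 51.4 and 49.0 CPM in IL-21isoTg, without overlap by a margin of under 0.1 CPM between wild-type 2 and IL-21isoTg 3. Dnajb11 (ERdj3) measured 61.3, 62.9 and 66.1 CPM in wild-type and 74.0, 79.0 and 74.3 CPM in IL-21isoTg. Their log2 fold changes were 0.39 ± 0.17 and 0.26 ± 0.13, with unadjusted p of 0.057 and 0.089 and an adjusted p of 0.809 for each with edgeR. The other 7 chaperones, Hsp90b1, Hyou1, Canx, Dnajc3, Sdf2l1, Manf and Creld2, overlapped between genotypes, with log2 fold changes from -0.04 for Canx to 0.43 for Manf.

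The promoters of the members were searched for known sequence elements of stress responses. Members were chosen by name from this pathway, so their share of matches beside that of all promoters is a description, not a test. The ER stress response element (ERSE), written CCAAT and CCACG with 9 bases between them, was searched on both strands from 250 bases before to 50 after the start of each RefSeq gene (GRCm38.p6). It was present for 6 of the 9 chaperones with a promoter in the table, for 8 of 34 members (23.5%) and for 39 of all 32851 promoters (0.119%). The other 8 members, Atf6, Creb3l1, Ern2, Hyou1, Manf, Sec11c, Sec61a1 and Ssr2, were not matched to the table. The matches are listed below. Each is read in the direction of the element, with the match in capitals and 5 bases on each side in lower case:
Hspa5 (chr2:34772020-34772048, plus strand): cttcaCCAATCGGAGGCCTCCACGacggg
Hsp90b1 (chr10:86705633-86705661, minus strand): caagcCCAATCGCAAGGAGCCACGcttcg
Hsp90b1 (chr10:86705528-86705556, plus strand): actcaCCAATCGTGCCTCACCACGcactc
Calr (chr8:84847070-84847098, plus strand): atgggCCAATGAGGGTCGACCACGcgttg
Canx (chr11:50325795-50325823, minus strand): attgaCCAATCACCACGCTCCACGaagaa
Creld2 (chr15:88819515-88819543, minus strand): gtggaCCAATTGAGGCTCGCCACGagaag
Dnajc3 (chr14:118937822-118937850, plus strand): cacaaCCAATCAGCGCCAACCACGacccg
Pdia6 (chr12:17266486-17266514, plus strand): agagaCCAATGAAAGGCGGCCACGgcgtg
Syvn1 (chr19:6046527-6046555, plus strand): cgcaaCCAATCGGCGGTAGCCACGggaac

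The shorter ERSE-II, written ATTGG and CCACG with 1 base between them, was found in 2 members, Herpud1 and Dnajb11, and in 12 of all promoters (0.0365%). Among the 8 members with an ERSE match, 6 were highest in IL-21isoTg 2 and 6 lowest in IL-21isoTg 3. Of the 24 members with a promoter and neither element, 4 were highest in IL-21isoTg 2 and 2 lowest in IL-21isoTg 3. These 4 were Sdf2l1, Pdia3, Pdia4 and Edem1, while the ERSE genes Dnajc3 and Syvn1 were highest in other libraries. Element and role went together, as 6 of the 8 ERSE members were chaperones. The part of either in these levels was not tested, and no share over all genes was counted. The ERSE members had a median log2 fold change of 0.11 between genotypes, and those with neither element 0.19. The ATF4 element TGATGNAAT was found in none of the 34 member promoters and in 317 of all promoters (0.965%). No matches of the elements overlapped each other in these promoters. The ERSE-II matches, that of Dnajb11 lying just after the start, are shown in the same way:
Herpud1 (chr8:94386372-94386392, plus strand): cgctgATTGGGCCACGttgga
Dnajb11 (chr16:22857847-22857867, plus strand): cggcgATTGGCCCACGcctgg

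The disulfide isomerases form and rearrange the disulfide bonds of secreted proteins. P4hb, also a subunit of prolyl hydroxylase, measured 679.5, 627.2 and 576.1 CPM in wild-type and 660.8, 721.3 and 969.1 CPM in IL-21isoTg. Pdia3, which works with calnexin and calreticulin on glycoproteins, measured 432.9, 419.1 and 370.3 CPM in wild-type and 369.0, 530.0 and 284.0 CPM in IL-21isoTg. P4hb was highest in IL-21isoTg 3, the library in which Pdia3, Pdia4 and Pdia6 were lowest. All 4 isomerases overlapped between genotypes, with log2 fold changes of 0.32 ± 0.22 for P4hb, 0.11 ± 0.27 for Pdia6, 0.02 ± 0.31 for Pdia4 and -0.05 ± 0.25 for Pdia3.

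The members of ER-associated degradation, which return misfolded proteins to the cytosol, all had log2 fold changes above 0, from 0.11 for Edem1 to 0.56 for Herpud1. Herpud1, a stress-induced membrane adaptor of the Syvn1 ubiquitin ligase complex, was high in IL-21isoTg 1 and 3 at 197.1 and 171.5 CPM, but at 97.5 CPM in IL-21isoTg 2 it lay within the wild-type range of 97.1 to 113.0 CPM. Its log2 fold change of 0.56 ± 0.26 had an unadjusted p of 0.062. Syvn1 and Sel1l, which form the core of that complex, had log2 fold changes of 0.18 ± 0.17 and 0.16 ± 0.20.

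The translocon, TRAP and signal peptidase genes had the highest median log2 fold change of the 7 roles, 0.32, and all 10 were above 0. Sec61a1, the channel-forming subunit of the translocon, measured 275.9, 258.7 and 217.0 CPM in wild-type and 306.6, 315.5 and 379.0 CPM in IL-21isoTg. The genotypes did not overlap, and the log2 fold change was 0.41 ± 0.18 with an unadjusted p of 0.0499 and an adjusted p of 0.809 with edgeR. Sec61a1 shares 549 of its 6732 exon bases with the antisense gene Gm44170, which had 1089 to 2362 counts per library against 4064 to 8474 for Sec61a1. The other 9 genes overlapped between genotypes, with log2 fold changes from 0.02 for Ssr1, a subunit of the translocon-associated TRAP complex, to 0.50 for Sec11c, a catalytic subunit of signal peptidase.

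Of the COPII genes, 1 of 3 lay apart between genotypes, beside 12.1% of all genes in either direction. Sec24d, which selects cargo for the vesicles, measured 43.1, 45.2 and 38.8 CPM in wild-type and 60.9, 51.1 and 63.3 CPM in IL-21isoTg. The groups did not overlap, with a 1.38-fold difference (log2 0.46 ± 0.15), an unadjusted p of 0.016 and an adjusted p of 0.809 with edgeR. The inner coat gene Sec23a had a log2 fold change of 0.05 ± 0.17 and the GTPase gene Sar1b 0.08 ± 0.14. The core of the unfolded protein response element, TGACGTGG, was found in the promoters of Sec24d and Sec23a and in 222 of all 32851 promoters (0.676%). Among the other pathway genes it was found in 7 of 71 promoters, among them Sec16b, a gene of ER exit sites. The others were Copb1, Copb2, Vcp, Txndc5, Txndc11 and Kdelr3, with log2 fold changes of -0.01, 0.04, 0.04, 0.15, 0.13 and 0.64. For all of these others the genotypes overlapped. The part of the element in these levels was not tested. The matches of Sec24d, Sec23a and Sec16b are in capitals:
Sec24d (chr3:123267465-123267482, plus strand): gcgccTGACGTGGcacta
Sec23a (chr12:59011999-59012016, minus strand): cccttTGACGTGGcagag
Sec16b (chr1:157506747-157506764, plus strand): gtggcTGACGTGGcacgg

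A wider list of 87 other pathway genes was examined in the same fit, of which 85 were tested; Agr2 and Creb3l3 did not pass the filter. Of these, 63 had a log2 fold change above 0 and the median was 0.12. None passed the adjusted threshold, and 6 had an unadjusted p under 0.05, all higher in IL-21isoTg: Sec16b, Sil1, Dad1, Srprb, Srp14 and Surf4, beside 3.19% of all genes in that direction. Sec16b, which organizes ER exit sites, had the smallest p of the list. It measured 4.33, 2.59 and 5.98 CPM in wild-type and 11.2, 11.4 and 11.3 CPM in IL-21isoTg, without overlap, a log2 fold change of 1.39 ± 0.32 with an unadjusted p of 0.0026 and an adjusted p of 0.670 with edgeR. The other 5 had log2 fold changes of 0.46 for Sil1, a nucleotide exchange factor of BiP, 0.35 for Dad1, an oligosaccharyltransferase subunit, 0.40 for Srprb and 0.32 for Srp14, which act in targeting to the ER, and 0.41 for Surf4, a cargo receptor. In all, 14 of the 85 genes were higher without overlap and 1, Eif2ak4, was lower, beside 5.54% and 6.54% of all genes.

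The second comparison asked how the members varied with the share of salivary gland counts. Acinar cells of salivary glands, like alveolar mammary cells, are specialised for protein secretion. No member passed the adjusted threshold with genotype in the same fit, against 0.379% of all genes (65 genes). These 65 include 7 of the salivary genes from which the share was computed. The slope is the change in log2 level for each increase of the share by a factor of 2. It was above 0 for 24 members and below 0 for 17, beside 46.4% of all genes above 0. The median slope was 0.03 for members and -0.01 for all genes. The direction of the member median turned when either library at the ends of the share was left out. Without IL-21isoTg 2, 19 members were above 0, with medians of -0.02 for members and -0.0027 for all genes. Without IL-21isoTg 3, 17 were above 0, with medians of -0.0093 and 0.0042. Of all genes, 49.7% and 51.0% were above 0 in these fits. Unadjusted p was under 0.05 for 5 members with a positive slope, Creb3l1, Sec11c, Eif2ak3, Sec61b and Ssr4, against 5.07% of all genes. It was also under 0.05 for 4 members with a negative slope, Pdia6, Pdia4, Sdf2l1 and Hyou1, against 3.8% of all genes. These 9 members were singled out after their values were seen. The share itself mixes genes that varied apart. Of the 13 salivary genes tested, 10 had a positive slope, while Dcpp1, Dcpp2 and Dcpp3 had slopes of -0.19, -0.51 and -0.20. The share was computed from these same genes, so their positive slopes were largely fixed in advance and are no separate result.

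The positive slopes included genes of several roles. The membrane-bound factor gene Creb3l1 and the sensor gene Eif2ak3 had slopes of 0.45 ± 0.07 and 0.56 ± 0.14, and the signal peptidase gene Sec11c 0.42 ± 0.08; the translocon genes Sec61b and Ssr4 had slopes of 0.29 ± 0.08 and 0.27 ± 0.08. Adjusted p of edgeR was 0.087 for Creb3l1, 0.146 for Sec11c and 0.297 for Eif2ak3, and the DESeq2 Wald test called these 3 genes, in a fit that called 359 rising and 73 falling genes, or 2.52% of all genes. Sec11c measured 63.1, 39.5 and 50.03 CPM in wild-type and 63.9, 42.2 and 110.8 CPM in IL-21isoTg, and its levels were close in the libraries of either genotype with like shares. Sec61b, the beta subunit of the translocon, measured 55.7, 42.1 and 48.9 CPM in wild-type and 58.1, 46.4 and 96.7 CPM in IL-21isoTg. Ssr4, a subunit of the TRAP complex, measured 116.9, 83.8 and 86.9 CPM in wild-type and 117.8, 90.7 and 168.1 CPM in IL-21isoTg. At the like shares of 22.0 and 22.5%, Creb3l1 measured 84.2 CPM in IL-21isoTg 1 and 49.3 CPM in wild-type 1.

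Among the 11 chaperones 10 had a slope below 0, as had 3 of the 4 disulfide isomerases. Of all 17165 genes tested, 9203 had a slope below 0. Pdia6 measured 230.6, 260.8 and 226.7 CPM in wild-type and 240.6, 361.9 and 172.3 CPM in IL-21isoTg, with a slope of -0.28 ± 0.08. Pdia4 measured 88.3, 101.4 and 95.1 CPM in wild-type and 100.6, 134.5 and 52.4 CPM in IL-21isoTg, so that IL-21isoTg 2 and 3 lay on either side of the wild-type range. Hyou1, the large Hsp70 relative that assists BiP, measured 137.9, 158.7 and 155.8 CPM in wild-type and 161.9, 211.6 and 133.5 CPM in IL-21isoTg. Sdf2l1, a cofactor of BiP and its J proteins, measured 14.9, 19.1 and 20.4 CPM in wild-type and 21.6, 32.0 and 18.9 CPM in IL-21isoTg. For each of these chaperones and isomerases IL-21isoTg 2 was the highest library. Pdia4 had a slope of -0.32 ± 0.10, Sdf2l1 of -0.23 ± 0.09, Hyou1 of -0.18 ± 0.07 and Hspa5 of -0.21 ± 0.10. Xbp1 had a slope of 0.10 ± 0.08, and the genotype difference of Xbp1 beside the share was 0.78 ± 0.17. IL-21isoTg 2 and 3 had the lowest and the highest share. Without IL-21isoTg 3, 2 members had an unadjusted p under 0.05 with a positive and 0 with a negative slope. Of all genes, 2.29% had such a p with a positive slope, and 0 genes of the whole table passed the adjusted threshold. Without IL-21isoTg 2, 4 members had an unadjusted p under 0.05 with a positive and 0 with a negative slope, beside 7.02% of all genes with a positive slope. The share of all genes with such a p and a negative slope was not counted in either fit. The directions of the slopes of the 11 members given here were kept when any library was left out. The share fits also carry the TMM factor of IL-21isoTg 3, 0.675 against 0.936 to 1.23 in the other libraries, and its part in the slopes was not tested.

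**Figure D3:**
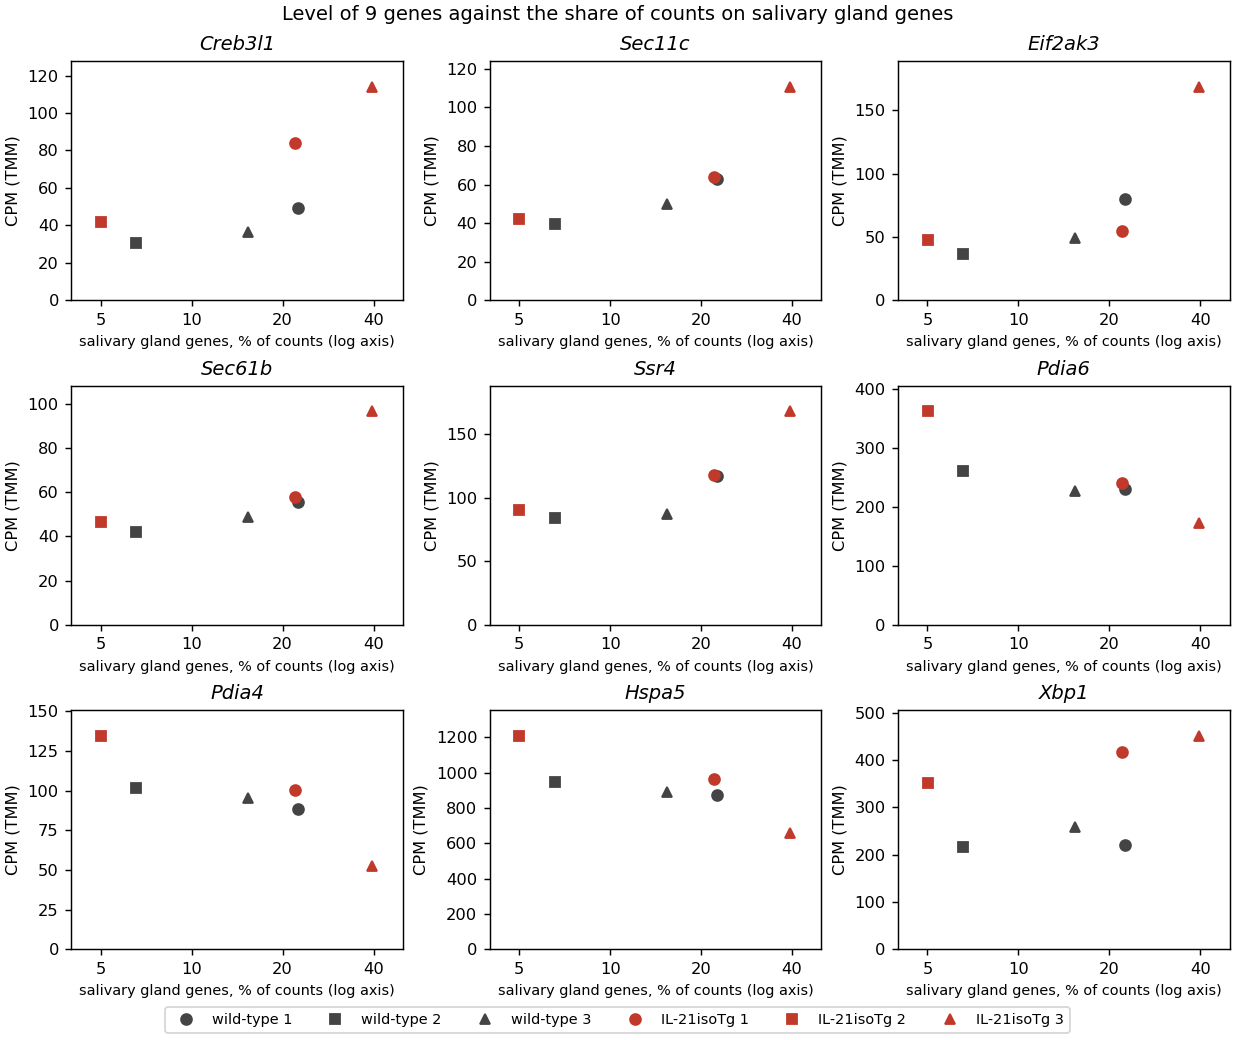
Level in TMM-normalized CPM (vertical axes, each from 0) of 9 members against the percent of counts on the 15 salivary gland genes (log axis) in the 3 wild-type (grey) and 3 IL-21isoTg (red) libraries. Creb3l1, Sec11c, Eif2ak3, Sec61b and Ssr4 are highest and Pdia6, Pdia4 and Hspa5 lowest at the share of 39.5% in IL-21isoTg 3, while Xbp1 is higher in each IL-21isoTg library than in each wild-type library.

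With the share in the fit, the genotype difference had an unadjusted p under 0.05 for 6 members, Xbp1, Creb3l1, Sec24d, Manf, Sdf2l1 and Dnajb9, all higher in IL-21isoTg, against 3.54% of all genes. Creb3l1 had a log2 difference of 0.81 ± 0.15 and an adjusted p of 0.409 with edgeR's quasi-likelihood test, and Xbp1 an adjusted p of 0.558. Of the wider pathway list, 4 genes passed the adjusted threshold for the share, all with a positive slope. They were Derl3, an ER degradation factor (0.96, adjusted p 0.0082 with edgeR), Asns, the asparagine synthetase gene (0.79, 0.010), Chac1, a glutathione-degrading enzyme gene (1.06, 0.015), and Bhlha15, the acinar transcription factor MIST1 (0.76, 0.047). Ero1lb, an ER oxidase gene, followed with 0.41 and an adjusted p of 0.222.

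The libraries differed in which members they held at the extremes. IL-21isoTg 3 had the highest level for 20 of the 41 members and the lowest for 9, and IL-21isoTg 2 had the highest for 13 and the lowest for 1. IL-21isoTg 3 was the highest library for all 5 tested genes of the sensor and membrane-bound transcription factor group, all 3 COPII genes and 7 of the 10 translocon and signal peptidase genes. IL-21isoTg 2 was the highest for 9 of the 11 chaperones and 3 of the 4 isomerases, and IL-21isoTg 3 was the lowest for 6 and 3 of these. Wild-type 3 was the lowest library for 16 members and the highest for none. The same counts were not made over all genes, so whether these extremes are particular to the members was not tested. IL-21isoTg 3 also had the fewest counts and the lowest TMM factor, 0.675. The ratio of highest to lowest library had a median of 1.74 over the members, from 1.19 for Sar1b to 4.63 for Eif2ak3 and Trib3.

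**Figure D4:**
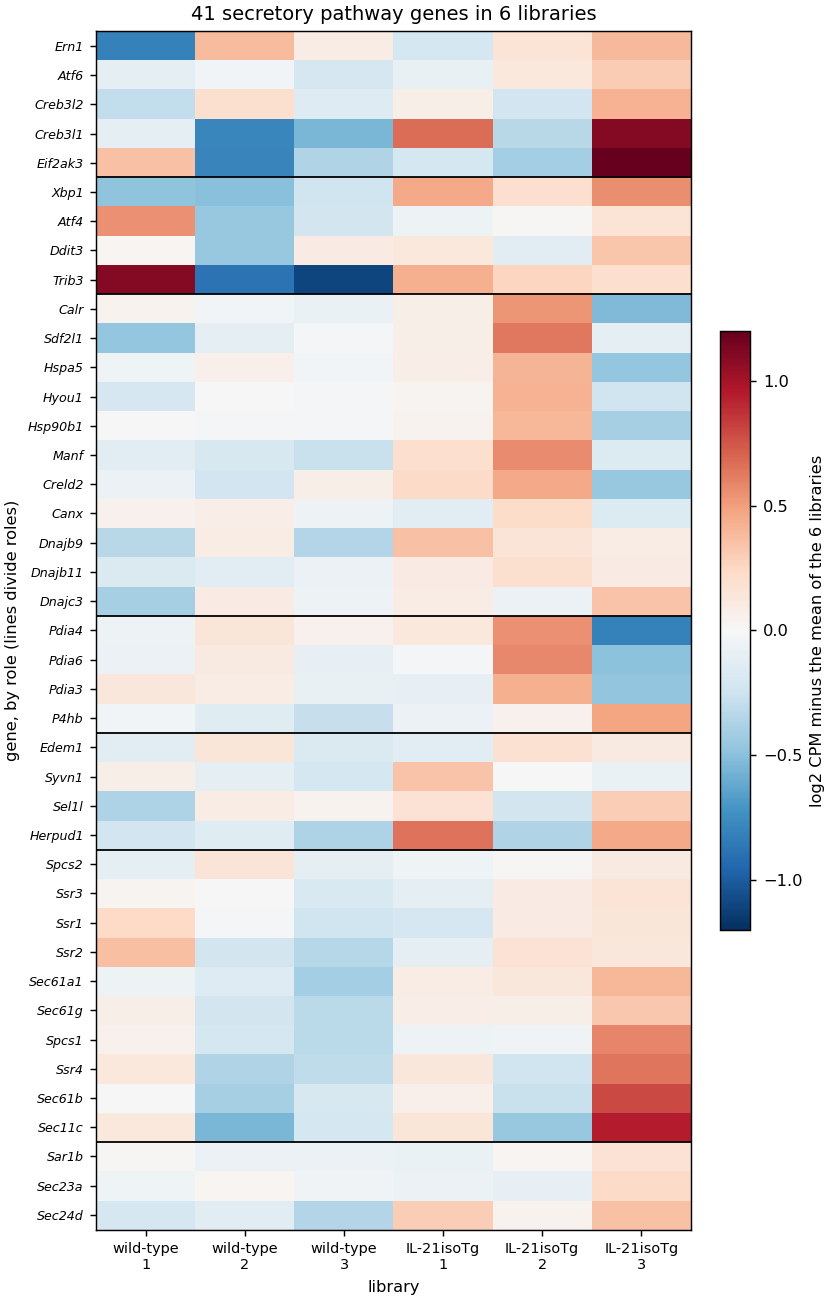
Each of the 41 members tested (rows, lines divide the roles) in each library (columns), coloured by log2 CPM minus the mean over the 6 libraries, with red above and blue below that mean. Most chaperones and isomerases are red in IL-21isoTg 2 and blue in IL-21isoTg 3, whereas sensors and membrane-bound factors, translocon and signal peptidase genes are red in IL-21isoTg 3.

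The members together took 0.677, 0.812 and 0.692% of all counts in wild-type 1, 2 and 3 and 0.671, 0.949 and 0.491% in IL-21isoTg 1, 2 and 3. As a share of the counts outside the salivary gland list they took 0.874, 0.868 and 0.818% in wild-type and 0.861, 0.999 and 0.812% in IL-21isoTg. On the TMM scale their summed level was 6806, 6637 and 6256 CPM in wild-type and 7179, 8134 and 7283 CPM in IL-21isoTg. The groups did not overlap on the TMM scale and overlapped on the share scales.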

How the data were processed

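Mammary epithelial cells (MECs) of 3 wild-type and 3 IL-21isoTg BALB/c mice were measured by poly(A) RNA-seq with a directional library kit. The authors deposited counts of reads per gene, not normalized. Their processing notes name Trimmomatic 0.38, HISAT2 2.1.0, SAMtools 1.9, featureCounts 1.6.3 and the mm10 build. The gene annotation and the strand setting of the counting are not given in the sources used here. The deposited normalized values and the authors' own comparison (fold changes and p-values) were not used.

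Counts were filtered with filterByExpr (minimum count 10, minimum total 15) and normalized by the trimmed mean of M values (TMM). The quasi-likelihood test of edgeR 4.0.16 (R 4.3.3) compared the genotypes, with Benjamini-Hochberg adjustment over all 17165 genes and a threshold of 0.05. Standard errors of log2 fold changes were taken from the F statistic. Levels are CPM (counts scaled to a common library total) on TMM-scaled libraries, compared between genes only per kilobase of exon (GENCODE M21 exon lengths). A second fit added the log2 share of counts on 15 salivary gland genes as a covariate and has 3 residual degrees of freedom. Scripts were tested on simulated data. Alternatives were DESeq2 1.42.0, limma-voom (limma 3.58.1), other scalings and filters, and leaving out each library. Total depth was 15902886 to 25719244 counts per library.

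Genes given in every library were members with an unadjusted p under 0.05 for genotype or with genotypes that did not overlap. The 5 members with the highest level per kilobase and the main sensors and effectors were also given. Members with an unadjusted p under 0.05 for the share were added after their values were seen. Of other pathway genes, those with an unadjusted p under 0.05 for genotype and the 5 with the smallest p for the share were named. Members, lists and tests were chosen with earlier results of these data known. The labels do not say whether the replicate numbers pair the libraries. Same-number correlations of deviations from the genotype means were -0.22, 0.07 and -0.06, and different-number correlations ranged from -0.23 to 0.23. With 3 libraries per genotype these correlations cannot decide whether the libraries were paired.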

Additional observations from a re-analysis of the deposited data

How the results depend on the processing

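The counts of members past the adjusted threshold stayed at 0 for genotype in each direction under the alternatives run, except 1 higher with the DESeq2 Wald test (Xbp1). Over all genes, 0 were called in each direction (999 with an unadjusted p under 0.05). The number higher became 14 with no filter, 72 with the DESeq2 Wald test, 52 with the edgeR likelihood ratio test, 3 with total counts only, and 0 to 6 when each library was left out. The number lower became 8 with DESeq2, 13 with the likelihood ratio test and 1 with the salivary share as a covariate. For the share, DESeq2 called 3 rising members, and over all genes 359 rising and 73 falling genes in place of 61 and 4; leaving out each library gave 0 to 89 rising and 0 to 28 falling genes. Members with differences near 0 turned direction. With total counts only, the log2 fold change was -0.16 for Ern1, -0.046 for Atf6, -0.22 for Atf4, -0.076 for Ddit3, -0.13 for Hspa5 and -0.064 for Calr; with totals outside the salivary list it was -0.12 for Atf4, -0.067 for Hspa5 and -0.017 for Calr. With limma-voom Hspa5 was at -0.0078, and with the plasma cell share as a covariate Ern1 was at -0.12 and Pdia3 at 0.26; that share is mostly Sdc1 counts and so does not measure plasma cells by themselves. Leaving out each library gave ranges of -0.10 to 0.43 for Ern1, -0.11 to 1.09 for Eif2ak3, -0.17 to 0.39 for Atf4, -0.16 to 0.27 for Hspa5, -0.18 to 0.34 for Calr and -0.32 to 0.15 for Pdia3. The cause was not tested. Total counts only and totals outside the salivary list were added after the data were seen. With 3 libraries per genotype, many of the members' differences were within the standard error.

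The replicate numbers are shared by the genotypes, and the labels do not say whether they pair the libraries. Same-number correlations of -0.22, 0.07 and -0.06 cannot decide this. With a replicate block, 38 of 41 members were above 0, beside 48.5% of all genes, none was called, and 0 genes were called in either direction.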
